A study of Caenorhabditis elegans with 2 samples.

Results

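The 70 mitochondrial ribosomal protein genes of Caenorhabditis elegans were examined for occupancy by the basic leucine zipper (bZIP) transcription factor ZIP-4. They are the protein-coding genes of the Ensembl WBcel235 annotation whose name starts with mrpl- (41 genes, large subunit) or mrps- (29 genes, small subunit), among 19973 protein-coding genes of the nuclear chromosomes. The data are chromatin immunoprecipitation sequencing (ChIP-seq) peak lists from whole worms of strain OP590. All carried the mutation unc-119(tm4063) and the transgene wgIs590, which encodes zip-4::TY1::EGFP::3xFLAG together with unc-119(+), the rescue marker. The worms were first-stage (L1) larvae aged 6 hours, of both sexes pooled, and had been starved after bleaching. Chromatin was sheared by sonication and precipitated with an antibody to GFP, although the labels list zip-4 as the antibody. There was 1 group with 2 biological replicates and no untagged, fed or mutant group, so every value below describes this strain in this state. Tissues were not separated, and binding in few cells cannot be told apart from weak binding in many.

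Mitochondria keep their own ribosome, which translates the few proteins that the mitochondrial genome encodes, which are parts of the respiratory chain and ATP synthase. Its proteins are encoded in the nucleus, made in the cytosol and imported. Some descend from bacterial ribosomal proteins and others are found only in mitochondrial ribosomes. In worms, knockdown of mitochondrial ribosomal protein genes such as mrps-5 is known to induce the mitochondrial unfolded protein response and to extend lifespan. Many worm genes also lie in operons, in which several genes on 1 strand are transcribed from the promoter of the first and their transcripts separated by trans-splicing.

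The lists were scored by a signal value that the authors deposited for each region and whose scale is not stated. Each replicate, and the pool of both, has 30000 candidate regions, most of them weak. The authors' optimal set comes from the irreproducible discovery rate method, which compares ranks between replicates. It holds 1290 peaks, identical to the top 1290 of the pooled list by signal value, down to 79.97. A single peak in it need not rank high in both replicates. A region was counted for a gene when its summit lay at a transcript start, within 1000 bp on the upstream side or 200 bp on the downstream side. By that rule, 876 optimal peaks fell at a protein-coding gene. Replicate values given beside a pooled peak are those of the strongest replicate region with its summit within 100 bp of the pooled one.

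10 members had an optimal peak at their own start. The windows within 50 bp of the summit are printed for 9 of them, so that the words described further on can be looked for. They include the 2 windows, of mrps-7 and mrpl-18, that hold none of those marked. The window of mrpl-47, not printed, also holds none of them. Each printed window is given 5′ to 3′ on the strand of its gene, on assembly ce11. Capitals mark the word CGCAAAC or its complement GTTTGCG, and in mrps-21 the word CTCGCAACG.
mrps-7, chrIV:14767853-14767953, minus strand: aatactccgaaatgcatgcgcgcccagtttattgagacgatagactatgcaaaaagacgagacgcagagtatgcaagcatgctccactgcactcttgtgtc
mrpl-28, chrII:156086-156186, minus strand: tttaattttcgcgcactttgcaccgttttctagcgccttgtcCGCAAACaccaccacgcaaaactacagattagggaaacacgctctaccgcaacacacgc
mrpl-12, chrIII:10707203-10707303, plus strand: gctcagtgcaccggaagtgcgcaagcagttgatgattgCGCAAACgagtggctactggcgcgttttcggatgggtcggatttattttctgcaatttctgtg
mrpl-55, chrIV:443802-443902, plus strand: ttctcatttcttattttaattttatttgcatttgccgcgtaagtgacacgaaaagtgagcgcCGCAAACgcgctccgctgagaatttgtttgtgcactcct
mrps-21, chrIV:4660437-4660537, minus strand: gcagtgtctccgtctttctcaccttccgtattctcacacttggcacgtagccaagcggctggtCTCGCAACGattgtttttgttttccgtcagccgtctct
mrps-16, chrII:5474114-5474214, plus strand: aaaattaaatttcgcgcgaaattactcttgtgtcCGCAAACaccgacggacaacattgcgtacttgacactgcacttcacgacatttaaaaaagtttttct
mrpl-45, chrIII:1202315-1202415, minus strand: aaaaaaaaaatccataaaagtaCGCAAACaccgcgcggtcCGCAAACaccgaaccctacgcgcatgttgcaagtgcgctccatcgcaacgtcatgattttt
mrpl-18, chrIII:8144703-8144803, plus strand: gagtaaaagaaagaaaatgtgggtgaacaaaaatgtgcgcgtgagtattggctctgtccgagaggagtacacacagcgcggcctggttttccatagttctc
mrpl-49, chrV:12728408-12728508, plus strand: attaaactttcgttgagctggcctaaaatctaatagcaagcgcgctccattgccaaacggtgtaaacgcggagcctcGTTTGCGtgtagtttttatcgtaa

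Optimal peaks were found at 10 of the 70 members, 14.3% (Clopper-Pearson 95% interval 7.07% to 24.7%), against 5.68% of the 19903 other protein-coding genes. The interval covers counting over genes only, and no test of the difference was made. The members with a peak were mrpl-12, mrpl-18, mrpl-28, mrpl-45, mrpl-47, mrpl-49, mrpl-55, mrps-7, mrps-16 and mrps-21. Both subunits were represented, with 7 of 41 large-subunit genes (17.1%) and 3 of 29 small-subunit genes (10.3%). The same 10 members had a pooled region with a q-value of 0.05 or less, where the share of other genes was 6.2%. The other 60 members had no optimal peak at their start.

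The strongest peak belonged to mrps-7, whose protein is a small-subunit member with a bacterial counterpart. Its signal value was 416.4 in the pool, 251.1 in replicate 1 and 162.5 in replicate 2, at ranks 97, 109 and 86 of those lists. The peak spanned chrIV:14767790-14767985 with its summit 173 bp upstream of the start, and it also lay in the promoter of the divergent gene Y57G11C.3. Its standing was thus similar in both replicates.

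mrpl-28, a large-subunit gene with a bacterial counterpart, had a pooled signal of 342.7 at rank 138. Its values were 236.4 in replicate 1 and 108.9 in replicate 2, ranks 124 and 179. The summit was 127 bp upstream of the start, in the interval chrII:156051-156203, and no other gene shared it. Both leading peaks stood high in either replicate.

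mrpl-12 encodes the stalk protein of the large subunit, which contacts the elongation factors. Its pooled signal was 214.6 (rank 316), with 138.9 in replicate 1 (rank 317) and 75.14 in replicate 2 (rank 333). The summit lay 508 bp upstream in chrIII:10707055-10707450, within the promoters of Y39A1A.21 and Y39A1A.22 as well, so the peak cannot be given to 1 of the 3 genes. mrpl-55, a large-subunit gene without a bacterial counterpart, had 175.7 in the pool (rank 445), 120.8 in replicate 1 (rank 411) and 48.67 in replicate 2 (rank 628). Its summit was 133 bp upstream, in chrIV:443654-444049, and the peak was at mrpl-55 alone.

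mrps-21 and mrps-16, small-subunit genes with bacterial counterparts, came next. mrps-21 had 139.8 in the pool (rank 606), 106.0 in replicate 1 (rank 511) and 36.46 in replicate 2 (rank 989), in chrIV:4660289-4660684. That summit was 970 bp from the mrps-21 start and 286 bp from the start of F29B9.11, the gene directly upstream on the same strand; jmjd-1.2, a histone demethylase gene, shared it too. The replicate 2 summit fell outside the mrps-21 window. mrps-16 had 121.7 in the pool (rank 730), 92.55 in replicate 1 (rank 612) and 30.30 in replicate 2 (rank 1395), with its summit 209 bp upstream in chrII:5473966-5474361. No other promoter held the mrps-16 peak.

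The remaining 4 peaks were close to the lower end of the optimal set. mrpl-45, whose mammalian counterpart sits at the exit of the nascent chain and anchors the ribosome to the inner membrane, had 90.24 in the pool, 58.17 in replicate 1 and 35.37 in replicate 2, ranks 1069, 1148 and 1033. Its summit was 357 bp upstream in chrIII:1202167-1202562, shared with Y119D3B.12. mrpl-47, a large-subunit gene, had 84.82 in the pool, 58.53 in replicate 1 and 21.60 in replicate 2, ranks 1176, 1140 and 4436, with the summit 9 bp upstream in chrI:5244076-5244471. Replicate 2 placed mrpl-47 far lower than replicate 1 did. mrpl-18, also of the large subunit, had 82.96 in the pool, 64.14 in replicate 1 and 18.15 in replicate 2, ranks 1211, 1004 and 8695, 262 bp upstream in chrIII:8144555-8144950 and shared with C14B9.8. mrpl-49, which has no bacterial counterpart, had 80.27 in the pool, 45.16 in replicate 1 and 32.16 in replicate 2, ranks 1282, 1776 and 1216. Its peak, in chrV:12728260-12728655, was 173 bp upstream and lay between mrpl-49 and the divergent rpl-28, a gene for a cytosolic ribosomal protein.

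**Figure D1:**
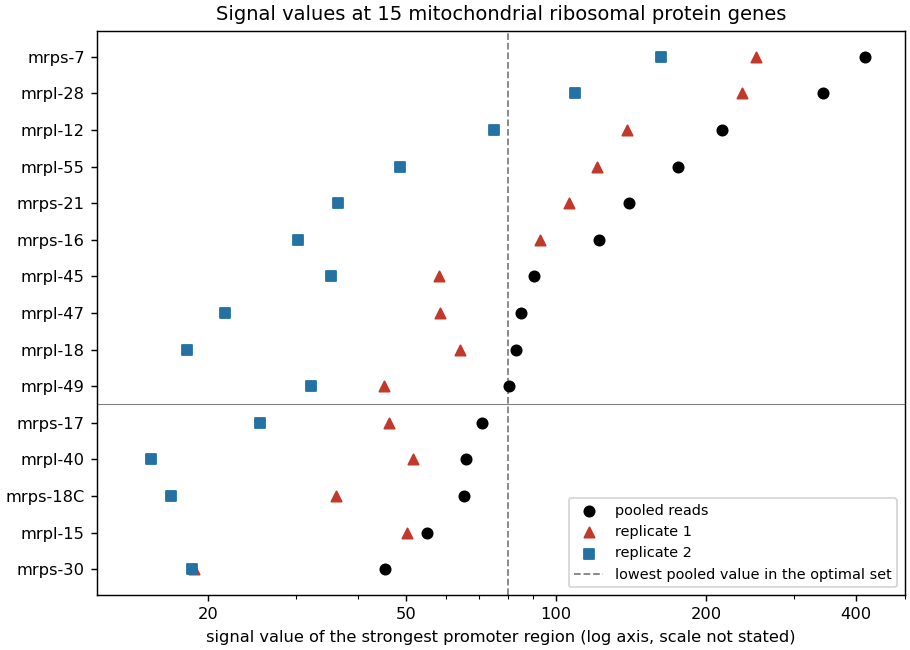
Signal value (log axis, scale not stated) of the strongest pooled promoter region of 15 mitochondrial ribosomal protein genes, with the replicate 1 and replicate 2 regions whose summits lie within 100 bp of it (none in replicate 2 for mrpl-15); genes above the line are in the optimal set, and the dashed line is its lowest pooled value, 79.97. Pooled values run from 416.4 at mrps-7 to 45.30 at mrps-30, and replicate 1 lies above replicate 2 in every member with an optimal peak.

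The 2 replicates ranked the member peaks differently. Among the 1290 strongest regions were 9 of the 10 peaks in replicate 1 and 7 in replicate 2, with 6 in both. The ratio of replicate 1 to replicate 2 signal had a median of 2.33 (range 1.40 to 3.53) over the 10 member peaks, against 1.90 over 825 other promoter peaks with a summit of both replicates within 100 bp. The depth of the libraries is unknown, and its part in these ratios was not tested. When the 1290 strongest regions of replicate 2 alone were used, 7 members had a region, losing mrpl-18, mrpl-47, mrps-16 and mrps-21 and gaining mrpl-36. The strongest of replicate 1 alone gave 10 members, losing mrpl-49 and gaining mrps-35. mrps-35, a small-subunit gene, had a replicate 1 signal of 68.07 at rank 927 and a replicate 2 signal of 17.64 at rank 9576, with summits 127 bp and 110 bp upstream, and no pooled region at its start.

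All 10 member peaks had intergenic summits, against 77.7% of 866 other promoter peaks. None lay within 200 bp of a tRNA, snRNA, snoRNA or rRNA gene, where 6.58% of the other promoter peaks did. 6 of the 10 fell in the promoters of 2 or more genes, against 35.2% of the others. The median signal of a member's strongest optimal peak was 130.7 (quartiles 86.2 to 205), against 152.2 (105 to 229) over the 1131 other genes with one, and the median summit was 191 bp upstream at members and 236 bp upstream at those other genes. These quartile ranges overlap, so height and position of the member peaks lay within the spread of the other genes' peaks.

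**Figure D2:**
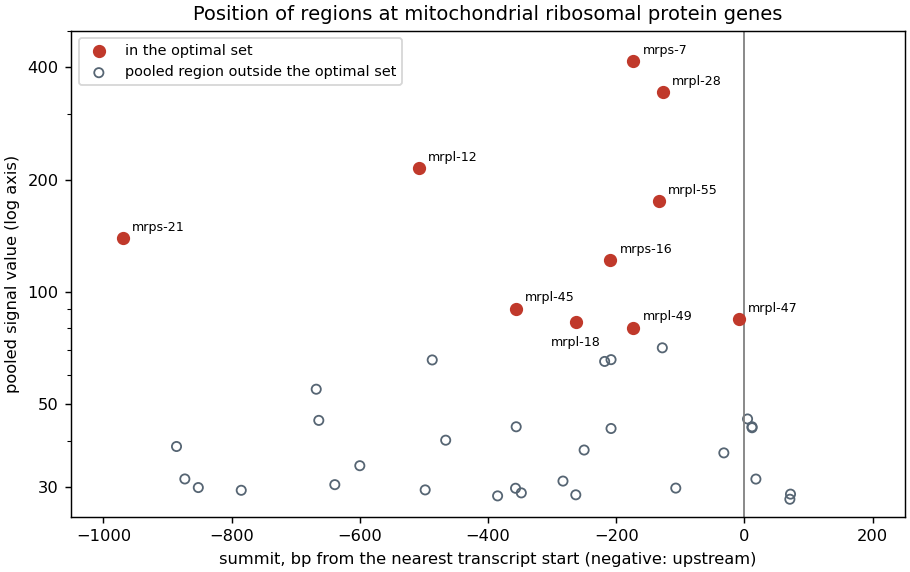
Summit position relative to the nearest transcript start (bp, negative upstream) against pooled signal value (log axis) for every pooled region at mitochondrial ribosomal protein genes; filled points are optimal peaks. 8 of the 10 optimal summits lie within 400 bp upstream of a start, and those of mrpl-12 and mrps-21 lie 508 bp and 970 bp upstream.

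Weaker regions were common at members and at other genes. In the pooled list, 34 members had a candidate region (48.6%, interval 36.4% to 60.8%) and 36 had none, against 39.6% of other genes with one. Replicate 1 had a region at 33 members and replicate 2 at 34, beside 40.3% and 39.3% of other genes. Both replicates had one at 23 members (32.9%, interval 22.1% to 45.1%), against 23.6% of other genes, and the 2 summits lay within 100 bp of each other at 15 members (21.4%), against 14.6%. The members' intervals for the pooled list and for both replicates include the share of the other genes. No region of any of the 3 lists fell at 24 members, among them mrps-5. The share of other genes without any was not counted, so the 24 describes the members alone.

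Just under the optimal set stood mrps-17, a small-subunit gene with a bacterial counterpart. Its pooled signal was 70.89 at rank 1548, with 46.10 in replicate 1 and 25.48 in replicate 2, and its q-value was 0.0662. mrpl-40, which has no bacterial counterpart, had 65.90 in the pool, 51.51 in replicate 1 and 15.38 in replicate 2, with the summit 208 bp upstream in the 5′ UTR of the neighbour F54C4.4. mrps-18C, a gene on chromosome III distinct from mrps-18.C on chromosome II, had 65.18, 36.09 and 16.84 in the same 3 lists. These members passed neither the authors' threshold nor a q-value of 0.05. mrpl-15 had 54.91 in the pool and 50.16 in replicate 1; its replicate 2 region, at 13.39, had its summit more than 100 bp from the pooled one. mrps-30 had 45.30, 18.74 and 18.56, its summit lying in the coding sequence of cdc-26. The 24 members with a pooled region outside the optimal set ranged from 27.85 to 70.89, with a median of 36.0.

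The members were unevenly spread over the chromosomes. Chromosome III held 22 of the 70 (31.4%), against 13.2% of other genes, and chromosome X held none, against 13.7%. An optimal peak stood at 3 of 22 members on III and 3 of 11 on IV. The counts were 2 of 12 on II, 1 of 15 on I and 1 of 10 on V. The share of other genes with an optimal peak was 9.17% on III, 5.08% on IV and 5.35% on II. It was 7.09% on I, 4.43% on V and 4.28% on X, and its part in the members' share was not tested.

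The members also differed from other genes in spacing. 29 of the 70 (41.4%, interval 29.8% to 53.8%) stood close behind a same-strand gene, against 20% of other genes. Close behind means starting at most 500 bp past the end of the next gene upstream, or overlapping it. The gaps of mrpl-1 (-510 bp) and mrps-27 (-105 bp) were such overlaps. The median gap was 105 bp for these 29 members and 151 bp for the other genes so placed, and 19 of the 29 (65.5%) had a gap of 80 to 120 bp, against 23.1%. That range of gaps was chosen after the values were seen, and spacing is not an annotation of operons, which was not used here. Genes that follow each other in this way on 1 strand are called a run below.

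Peaks at members outside such runs and at members inside them lay in different places. Of the 41 members that were not close behind another gene, 9 had an optimal peak at their own start (22%, interval 10.6% to 37.6%), against 5.98% of other genes so placed. Of the 29 close behind one, only mrps-21 had a peak in its own window (3.45%, interval 0.0873% to 17.8%), against 4.5%, and that peak was nearer to F29B9.11, the first gene of its run. The first gene of the run had an optimal peak for 12 of the 29 members (41.4%, interval 23.5% to 61.1%), against 12% of other genes close behind a gene. Counted by distinct first genes, 11 of 28 had a peak (39.3%), against 325 of 2826 (11.5%). Among members with a gap of 80 to 120 bp, the first gene had a peak for 9 of 19 (47.4%, interval 24.5% to 71.1%), against 18.5%. With a peak at either place counted, 21 of 70 members had one (30%, interval 19.6% to 42.1%), against 7.83% of other genes.

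**Figure D3:**
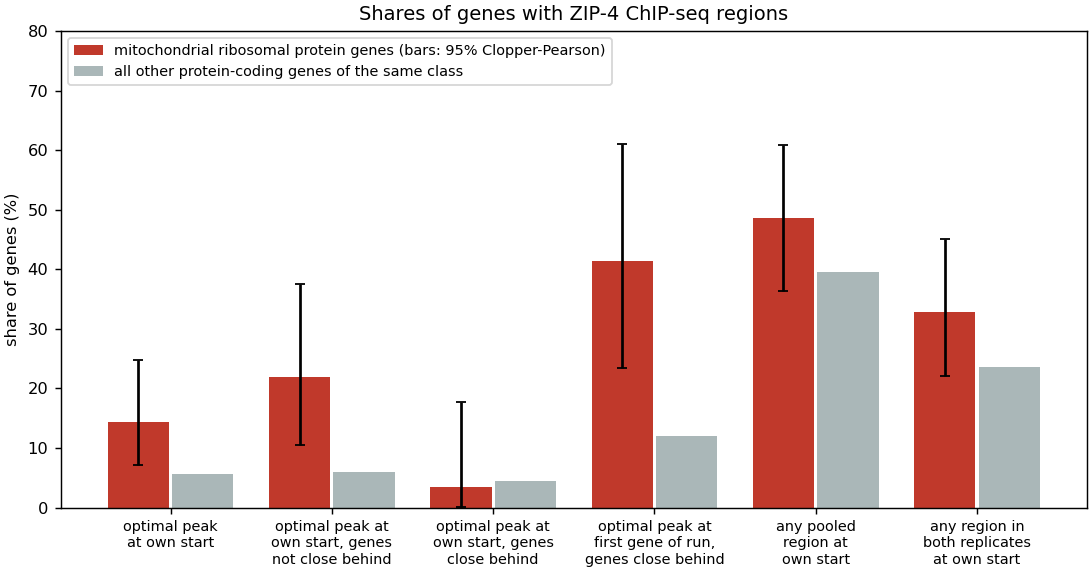
Share of genes (%) with a ZIP-4 region for mitochondrial ribosomal protein genes (red, with Clopper-Pearson 95% intervals) and for all other protein-coding genes of the same class (grey). Among genes close behind a same-strand gene, 3.45% of members have an optimal peak at their own start and 41.4% have one at the first gene of the run, against 4.5% and 12% of other genes.

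The first-gene peaks besides that of mrps-21 numbered 10 and stood upstream of 11 members. The highest was at rpn-3, which encodes a subunit of the proteasome regulatory particle, upstream of mrpl-32. Its signal was 328.3 in the pool (rank 149), 170.4 in replicate 1 (rank 233) and 146.9 in replicate 2 (rank 100), with the summit 2590 bp from the mrpl-32 start. clsp-1, the claspin gene, upstream of mrpl-54, had 269.1 in the pool (rank 221), 167.1 in replicate 1 and 100.6 in replicate 2. Both peaks thus stood among the strongest of either replicate.

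The run of natc-1, mrps-2 and mrpl-4 held 2 members behind 1 peak. natc-1 encodes a subunit of an N-terminal acetyltransferase, and its peak had 126.3 in the pool (rank 696), 82.31 in replicate 1 and 40.96 in replicate 2. The summit was 89 bp upstream of natc-1, 3416 bp from the mrps-2 start and 4995 bp from that of mrpl-4. mrps-26 stood behind prmt-5 and atp-2, the gene of the ATP synthase beta subunit. The atp-2 peak had 116.4 in the pool (rank 772), 85.57 in replicate 1 (rank 682) and 24.36 in replicate 2 (rank 2772), so replicate 2 ranked it well below replicate 1. mrps-30 stood behind cdc-26 and eif-3.E, a translation initiation factor gene, where the peak had 108.7 in the pool, 72.82 in replicate 1 and 34.89 in replicate 2.

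The other run peaks were at genes of varied function. tag-124, 4 genes upstream of mrpl-53, had a pooled signal of 163.9, and F21D5.7, in the run of mrps-33, had 162.1. nrde-2, a nuclear RNA interference gene before mrps-14, had 149.5, and misc-1, a mitochondrial carrier gene before mrpl-41, had 143.1 with the summit in an intron. W04D2.4, before mrps-11, had 82.32 at rank 1230. All 10 summits lay 2590 to 6457 bp from the start of the member, outside every window counted for the members themselves. The members of runs with no first-gene peak included mrps-5 behind sel-1, mrpl-50 behind cct-2 and mrps-22 behind dap-3, dohh-1 and rpb-6. dap-3 itself encodes a small-subunit protein of the mitochondrial ribosome that the naming rule leaves out. Which members are transcribed from these first promoters was not measured.

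Words named in earlier results on these peaks were counted at the members. TTGCGAAA, on either strand and at most 50 bp from the summit, was in 0 of 10 member peaks, against 17.3% of 866 other promoter peaks. The related words TTGCNNAA or TTACNNAA, of the kind bound by C/EBP factors and overlapping the first word, were in 2 of 10, against 27.4%. They were TTGCGCAA and TTGCAGAA at mrpl-12 and TTGCCAAA at mrpl-49. GAGAGAGA and CACGTG were in none of the 10, against 4.04% and 3.23%. With windows of 100 bp on each side, TTGCNNAA or TTACNNAA was in 4 of 10, against 41.0%. In windows centred 150 bp upstream of every gene start, whether bound or not, these words were in 18 of 70 members (25.7%), against 17.2% of other genes.

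Another word was shared by most of the member peaks and can be read in capitals in the windows printed above. Of 804 words of 7 letters in the 10 windows, CGCAAAC or its complement GTTTGCG occurred in the most, 6 of 10, and the next word in 4. The 6 were mrpl-12, mrpl-28, mrpl-45, mrpl-49, mrpl-55 and mrps-16, with 2 copies at mrpl-45. The word was in 5.20% of the 866 other promoter peaks and in 1.23% of 8040 weaker pooled promoter regions. In windows centred 150 bp upstream of every gene start, bound or not, 5 of 70 members had it (7.14%), against 1.19% of other genes. The word was picked because it was the most frequent at the member peaks, so the count of 6 is a description and supports nothing. The windows upstream of member starts overlap some of the peak windows it was picked from, so the 5 of 70 is no separate support. Among peaks that were not member peaks, it was in none of 35 at cytosolic ribosomal protein genes. The peak that rpl-28 shares with mrpl-49 is a member peak and holds it. None of the 10 other first-gene peaks of the runs held it. Sets of 35 and 10 are small beside a share of 5.20%, so finding none in them does not set the members apart. The longer word CCGCAAACACC was in the windows of mrpl-28, mrpl-45 and mrps-16, against 5 of 866 other promoter peaks (0.577%). It contains the shorter word and was read from these same windows, so its count is likewise only a description.

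A second word was noticed in the mrps-21 window and in those of 2 first genes of runs, printed here because each places it near the summit. Capitals mark CGTTGCGAG, the complement of CTCGCAACG in mrps-21.
rpn-3, chrIII:8447117-8447217, plus strand: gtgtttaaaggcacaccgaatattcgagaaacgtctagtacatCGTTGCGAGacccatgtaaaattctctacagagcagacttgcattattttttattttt
atp-2, chrIII:5228105-5228205, plus strand: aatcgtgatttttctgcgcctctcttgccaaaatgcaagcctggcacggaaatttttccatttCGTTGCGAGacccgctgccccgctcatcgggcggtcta
The word was in 8 of the 866 other promoter peaks (0.924%), which include those of rpn-3 and atp-2, and in 0.0871% of the weaker pooled promoter regions. It was chosen after the windows were read, and no match says only that these letters are not in a window.

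Other gene groups of mitochondria and ribosomes had their own shares of optimal peaks at the start, set here beside the members' 14.3%. They were 10 of 31 genes of mitochondrial import and protein quality control (32.3%, interval 16.7% to 51.4%), 14 of 52 of the respiratory chain and ATP synthase (26.9%, interval 15.6% to 41.0%) and 3 of 30 of mitochondrial translation and genome upkeep (10%, interval 2.11% to 26.5%). Cytosolic ribosomal protein genes had 38 of 81 (46.9%, interval 35.7% to 58.3%), whose interval lies above that of the members. The strongest peaks were at the chaperone gene hsp-60 (592.3), ddp-1 (417.0) and tomm-20 (259.4), both for import, at cox-5A (650.0) and mev-1 (243.6) of the respiratory chain with atp-1 (328.3) of ATP synthase, at the tRNA synthetase genes gars-1 (253.8) and ears-2 (172.3) with mtcu-2 (119.9), and at rpl-3 (1172), rpl-20 (917.2) and rpl-35 (792.8). The strongest member peak, at mrps-7 with 416.4, lay within the range of these values.

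Counting the first gene of the run moved the members more than the cytosolic ribosomal genes. The members' share with a peak at either place was 30%, the cytosolic ribosomal genes' 49.4%, the import genes' 38.7%, the respiratory genes' 36.5% and the translation genes' 10%. Close behind a same-strand gene stood 29 of 70 members, against 9 of 81 cytosolic ribosomal genes. By subunit, 12 of 41 mrpl genes (29.3%) and 9 of 29 mrps genes (31.0%) had a peak at either place, so the subunits differed less than they did at their own starts.

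**Figure D4:**
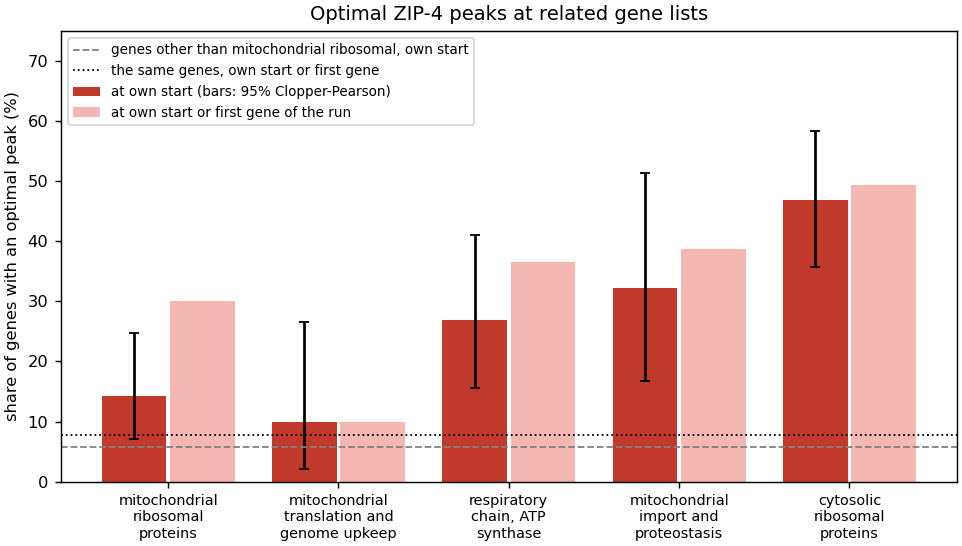
Share of genes (%) with an optimal ZIP-4 peak at their own start (dark, with Clopper-Pearson 95% intervals) and at their own start or the first gene of the run (light) for 5 gene lists; lines give the same shares over genes other than mitochondrial ribosomal, 5.68% and 7.83%. The members' bars are 14.3% and 30%, and those of cytosolic ribosomal protein genes 46.9% and 49.4%.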

How the data were processed

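The authors deposited 4 narrowPeak lists on ce11, per the labels: 1 for each replicate, 1 for the pooled reads and the optimal set. Each deposited region carries a signal value of unstated scale, a −log10 p-value, a −log10 q-value and a summit offset; the signal and the −log10 q-value were used. Not given in the sources used here were the aligner, peak caller, IDR threshold and depth. Genes came from Ensembl release 115 (WBcel235, the same assembly) and sequence from the NCBI reference genome of that assembly. Any transcript start of a gene counted, and a peak counted for every gene whose window held it. Shares have Clopper-Pearson 95% intervals. No test was made, since there was 1 group. Python 3.11.15, pandas 2.3.3, numpy 2.4.6 and scipy 1.17.1 were used, and the scripts were tested on simulated data. The members, lists and alternatives were chosen with earlier results of these data known. Named were members with an optimal peak or a q-value of 0.05 or less, the 5 next by pooled signal, the 3 strongest genes of each other list, and genes that share a peak or stand first in a run; mrps-35, mrpl-36, mrps-5, mrpl-50 and mrps-22 were named after their values were seen. The lists of mitochondrial translation and of import and protein quality control were set by gene symbol. The import list takes in regulator genes such as atfs-1, which is 1 of its 10 genes with a peak. The translation list takes in tRNA synthetase genes, among them gars-1, and whether their products act in mitochondria alone was not checked. Of the translation symbols, 7 had no match and were left out. The respiratory and cytosolic ribosomal lists were set by name prefixes and a few added symbols.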

Additional observations from a re-analysis of the deposited data

How the results depend on the processing

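Of 64 alternatives, 54 kept the count within 1.5 times of that reported (or the median within its spread), 10 moved and 0 reversed. With only the 645 stronger optimal peaks, 5 members had a peak at their start (7.14%, against 3.29% of other genes) and 11 at their start or the first gene of the run (15.7%, against 4.5%); the counts were then 25 for cytosolic ribosomal and 5 for import genes. With each peak given to the nearest start within 2000 bp, cytosolic ribosomal genes numbered 24 (29.6%) and members 8 (11.4%), against 5.00% of other genes. Members with a region in both replicates numbered 15 with a window of 500 bp upstream to 100 bp downstream (21.4%, against 13.6% of other genes). They numbered 37 with 2000 bp upstream (52.9%, against 38.8%) and 15 with summits within 100 bp (21.4%, against 14.6%). TTGCNNAA or TTACNNAA was in 4 of 10 member peaks within 100 bp of the summit, against 41.0% of other promoter peaks.

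Leaving out 1 replicate gave 7 to 10 members with a peak at their start, 17 to 20 with one at either place and 33 to 34 with any region. The ranges were 32 to 36 for cytosolic ribosomal, 15 to 16 for respiratory, 3 to 5 for translation and 9 to 10 for import genes. Members with a peak numbered 8 with the 500 bp window, which lost mrpl-12 and mrps-21, and 12 with 2000 bp, which gained mrpl-23 and mrps-28.

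No paired analysis was possible because there was 1 group. The start of the canonical transcript alone was not run, since the annotation used marks none. The outermost start, added after seeing the data, gave 10 members (14.3%, against 5.31% of other genes). The run counts without a replicate, with the stronger peaks and with only the gene directly upstream were also added then. The last gave 17 members (24.3%, against 7.41% of other genes). With 10 member peaks, shares within them are coarse.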
